A study of Mus musculus with 1753 samples.

Results

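Cluster 10 is a group of 62 fibroblasts from mouse skeletal muscle in which the neurotrophin receptor gene Ngfr, the protease inhibitor gene A2m and the transcription factor genes Sox8 and Sox9 stood above their levels in the other fibroblasts. Its members were taken from the cluster number that the submitters' labels give to each cell, and they make up 62 of 1753 cells. The 7 genes A2m, Ngfr, Ccl9, Shisa3, Sox8, Spp1 and Col9a2 were taken as its listed markers. The comparator was the 1504 fibroblasts of clusters 1 to 6, 8 and 9, of which 1116 belong to endomysial, 328 to perimysial and 60 to paramysial clusters. Cluster 7 holds the 187 mural cells, which are the smooth muscle cells and pericytes of blood vessels.

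All mice were adult males aged 10 to 20 weeks. Cells had been sorted one by one into wells from dissociated skeletal muscle, as cells that were negative for the endothelial protein CD31 and positive for a mesenchymal reporter or antibody, and each was sequenced with the full-length Smart-seq2 protocol. The strain label Cspg4dsRED, a line in which the promoter of the proteoglycan gene Cspg4 drives a red fluorescent protein, gave 37 cluster 10 cells. The PdgfraGFP - PdgfrbGFP pool, cells of 2 green reporter lines under a single label, gave 17, and PdgfrbGFP gave 8. Acta2GFP, a reporter of smooth muscle actin, and the wild-type C57BL6 gave 0. All 3 labels that hold cluster 10 cells come from reporter lines. Per the study's methods, soleus muscles of 1 mouse of each line were joined before dissociation in 1 instance. No such step is stated there for gastrocnemius. Since the pool label covers 2 lines, a cell of the pool and its comparators may carry different reporters. The labels name no animal, so the spread between strain labels is given as the error, and it may include differences between plates and sorts. Cspg4dsRED lay on a single plate, on which strain, sort gate and plate cannot be told apart.

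Fibroblasts of skeletal muscle lie around single fibres in the endomysium, around bundles of fibres in the perimysium, and within the nerves that run through the tissue. A peripheral nerve is wrapped in layers. Schwann cells sheathe the axons, fibroblasts fill the endoneurium between them, perineurial cells form a barrier around each bundle of axons, and the epineurium encloses the whole. Ngfr encodes the low-affinity neurotrophin receptor, which is known from Schwann cells, sensory neurons and several mesenchymal cells. SOX9, with SOX5 and SOX6, is the transcription factor that drives cartilage formation, and SOX8 and SOX10 are its closest relatives. SOX10 is a defining factor of Schwann cells.

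Depth over all cells ranged from 46097 to 1055869 counts per cell. Summed over cells, cluster 10 held 5366621 counts in Cspg4dsRED, 6814886 in the pool and 2050722 in PdgfrbGFP, against 8996187, 151032599 and 138662401 for the other fibroblasts of these labels. After every cell had been thinned to 45000 counts, the median cluster 10 cell held 1798, 3510 and 3151.5 genes and the median other fibroblast 1780.5, 3460 and 3172 in the same order. The difference was 15.7 ± 35.3 genes (mean ± SD, n = 3 strain labels), within the spread between labels. Levels are given below as CPM, the summed counts of a gene scaled to a common total of all counts, and a share of cells counts those with 100 or more counts of a gene after scaling each cell to 500000.

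The listed markers came first. Ngfr (ENSMUSG00000000120, chromosome 11, 95568818 to 95587735 in GRCm38, minus strand) stood at 204 CPM in cluster 10 of Cspg4dsRED, 670 in the pool and 1072 in PdgfrbGFP. The other fibroblasts of these labels held 5.78, 2.63 and 5.26 CPM, and mural cells 0.283, 0.634 and 0.270. The lowest cluster 10 value was thus above every comparator value, and the log2 difference within a label was 7.05 ± 1.48 (mean ± SD, n = 3). A2m (ENSMUSG00000030111, chromosome 6, 121635376 to 121679227, plus strand), which encodes the broad protease inhibitor alpha-2-macroglobulin, stood at 129, 228 and 210 CPM. In the other fibroblasts it had 1, 22 and 4 counts in total, or 0.111, 0.146 and 0.0289 CPM. Ccl9 (ENSMUSG00000019122, chromosome 11, 83572919 to 83578636, minus strand), a chemokine of the CC family, stood at 102, 387 and 117 CPM against 0.333, 1.13 and 0.317.

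Shisa3, an inhibitor of Wnt and fibroblast growth factor signalling, stood at 221 CPM in Cspg4dsRED, 797 in the pool and 421 in PdgfrbGFP, against 14.9, 9.70 and 4.24 in the other fibroblasts. Sox8 stood at 307, 161 and 582 CPM against 2.11, 7.03 and 3.70. The genes were lowest in different labels, Shisa3 in Cspg4dsRED and Sox8 in the pool, and no cluster 10 value reached down to a comparator value. Spp1, which encodes the matrix and mineral protein osteopontin, stood at 721, 546 and 858 CPM against 87.0, 17.1 and 25.9. Col9a2, a chain of the cartilage collagen IX, stood at 139.9, 174 and 90.2 CPM against 2.67, 3.34 and 0.00721. For both genes, too, every cluster 10 value lay above every value of the other fibroblasts in these labels, and the PdgfrbGFP comparator of Col9a2 rested on 1 count.

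**Figure D1:**
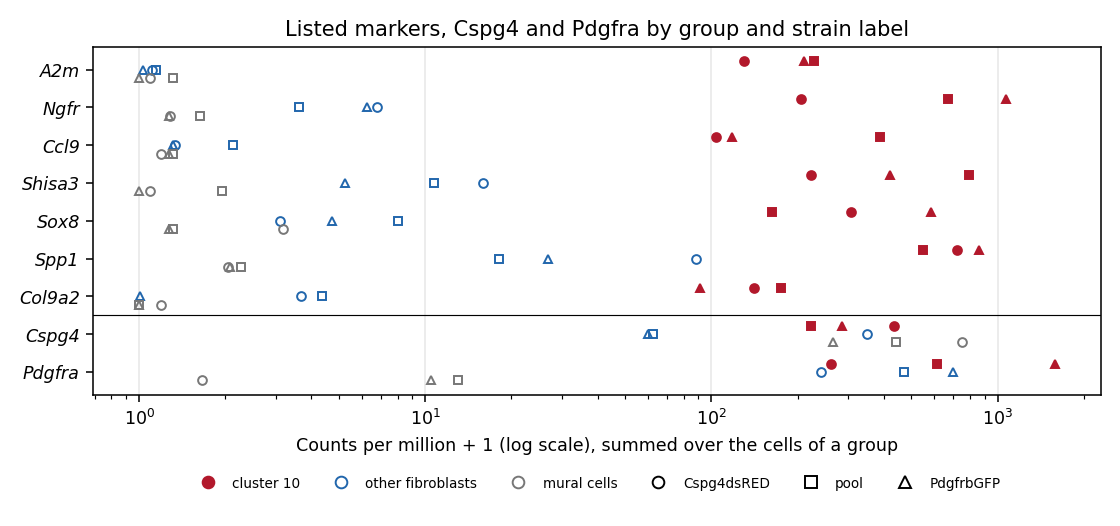
Levels of the 7 listed markers, Cspg4 and Pdgfra, in CPM plus 1 on a log axis, with 1 point per strain label (shape) and group (colour). For each of the 7 markers all 3 cluster 10 points lie to the right of every point of the other fibroblasts and mural cells. Cspg4 and Pdgfra overlap with the other fibroblasts across labels.

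The 2 genes in the working name of the cluster behaved differently. Ngfr reached 100 scaled counts in 29 of 62 cluster 10 cells (46.8%), against 0.665% of the other fibroblasts and 0.535% of mural cells, and 20 cluster 10 cells had no Ngfr count. Cspg4, the proteoglycan NG2 that is used as a pericyte marker, stood at 434 CPM in cluster 10 of Cspg4dsRED, 222 in the pool and 285 in PdgfrbGFP. The other fibroblasts held 347, 61.6 and 59.2 CPM and the mural cells 747, 439 and 265. Within each label Cspg4 was higher in cluster 10 than in the other fibroblasts, but it was not called (log2 fold change 1.62). Across labels the groups overlapped, since the other fibroblasts of Cspg4dsRED, a line with a Cspg4 reporter, lay above cluster 10 in the pool. Of the 62 cells, 31 reached the level of 100 for Cspg4.

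To show what sequence lies at the start of these genes, the windows from 250 bases before to 50 bases after the RefSeq start (GRCm38.p6) are given for Ngfr, which carries the name, and for Ccl9, the single listed marker with a match to a searched motif. They were searched on both strands for the AP-1 motif TGANTCA, bound by the products of Fos and Jun genes, and for the SOX motif AACAAT. Capitals mark the AP-1 match. The windows are chr11:95587649-95587948 for Ngfr and chr11:83578587-83578886 for Ccl9, each shown along the minus strand in the direction of the gene.
Ngfr: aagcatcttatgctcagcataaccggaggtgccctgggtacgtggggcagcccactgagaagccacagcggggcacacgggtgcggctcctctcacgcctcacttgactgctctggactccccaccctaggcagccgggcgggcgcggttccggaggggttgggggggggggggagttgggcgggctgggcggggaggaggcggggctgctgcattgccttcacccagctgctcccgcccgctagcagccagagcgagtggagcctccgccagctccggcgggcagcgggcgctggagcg
Ccl9: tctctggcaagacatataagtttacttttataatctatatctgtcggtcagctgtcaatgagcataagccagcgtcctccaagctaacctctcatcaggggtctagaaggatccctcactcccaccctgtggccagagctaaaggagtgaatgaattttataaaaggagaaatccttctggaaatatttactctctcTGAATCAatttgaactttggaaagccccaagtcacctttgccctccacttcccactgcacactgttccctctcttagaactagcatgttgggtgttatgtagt

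The Ngfr window had a GC content of 71.7% and held neither motif, and the Ccl9 window had 43.7% and held the AP-1 letters beginning 53 bases before the start. Of the 7 listed markers, 6 had a window, and of these 0 held the SOX motif and 1 the AP-1 motif. The share among all 27025 genes with a window was 12.2% for the SOX motif and 8.97% for the AP-1 motif. These are matches of letters and no measure of binding.

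Cluster 10 made up different shares of the fibroblasts of each label. It was 34.6% of the 107 fibroblasts of Cspg4dsRED (37 cells, 95% Clopper-Pearson interval 25.6 to 44.4%), 4.24% of the 401 of the pool (17 cells, 2.49 to 6.70%) and 1.35% of the 593 of PdgfrbGFP (8 cells, 0.584 to 2.64%). These intervals, like all limits on shares here, cover counting error only. Within the pool the muscles were kept apart, and the share was 4.44% of 225 gastrocnemius fibroblasts and 3.98% of 176 soleus fibroblasts, with intervals of 2.15 to 8.02% and 1.61 to 8.02%. All 8 cells of PdgfrbGFP came from 1 plate with 353 fibroblasts (2.27%). The gastrocnemius and soleus plates of that label held 0 of 131 and 0 of 109, which allows shares of up to 2.29% and 2.75%. In Acta2GFP the count was 0 of 101 (up to 2.97%) and in C57BL6 0 of 364 (up to 0.824%). The sort differed between labels, so a share in the sorted cells is not a share in the tissue.

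**Figure D2:**
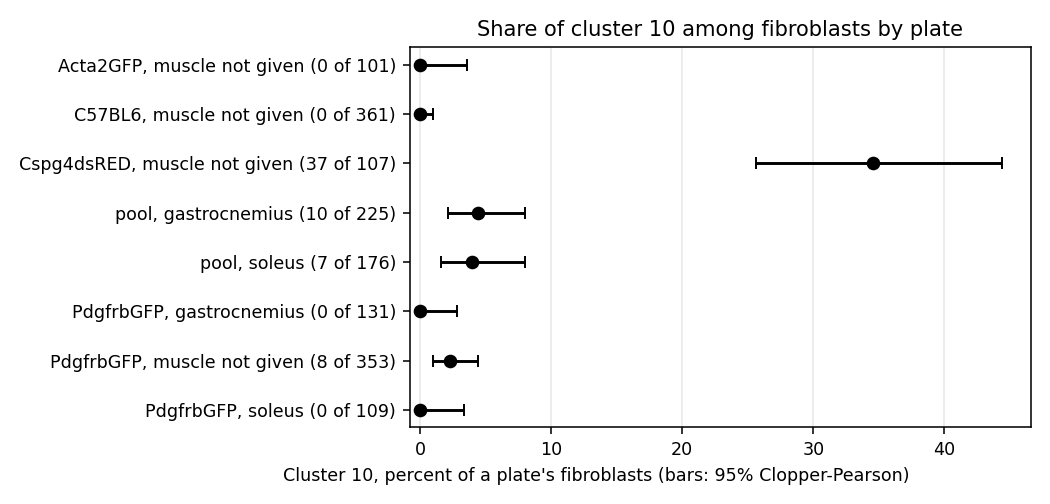
Share of cluster 10 among the fibroblasts of each plate, in percent, with exact 95% binomial intervals, for plates with at least 100 fibroblasts. The Cspg4dsRED plate stands at 34.6% and every other plate at 4.44% or below.

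The markers were spread unevenly over the 62 cells. The median cell reached 100 scaled counts for 2 of the 7 listed markers, 26 cells (41.9%) did so for 3 or more, and 8 cells did so for none. Of the 1504 other fibroblasts, 0 reached it for 3 or more and 96 for at least 1. Cluster 9, a perimysial cluster, held 40 of these 96. A2m was counted at this level in 14 cells, Ccl9 and Col9a2 in 14 each, Sox8 in 17, Shisa3 in 29 and Spp1 in 33. Ngfr and Shisa3 shared 20 cells of the 38 with either, whereas Ccl9 and Sox8 shared 2 of 29. Cells with few markers were not tested for being a different type.

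**Figure D3:**
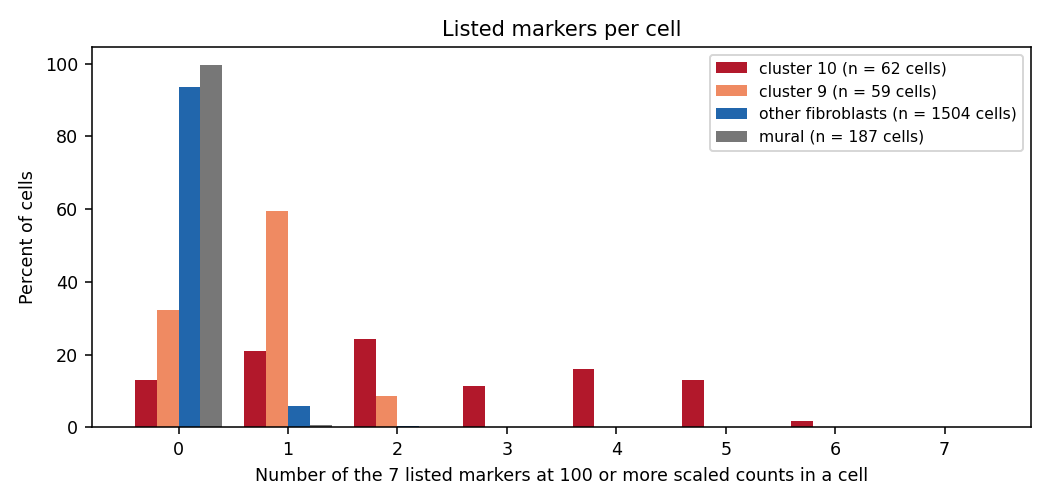
Percent of cells (vertical axis) by the number of the 7 listed markers that reach 100 scaled counts (horizontal axis), for cluster 10, cluster 9, all other fibroblasts (cluster 9 included) and mural cells. Cluster 10 spreads from 0 to 6 markers, and 0 cells of the other groups reach 3.

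The 8 cells without a listed marker carried some of the other genes described below and lacked others. All 8 had 100 or more scaled counts of Gpc3, the cell surface proteoglycan glypican 3, 7 had them for Matn2, the matrix protein matrilin 2, and 6 for Sox9. Osr2 reached it in 3, Cyp2s1 and Rasgrp2 in 2 each, Gfra1 and Cdh19 in 1 each and Col15a1 in 0. Dcn, the fibroblast proteoglycan decorin, reached that level in all 8. Of the 8, 6 came from Cspg4dsRED, where their median depth was 190925 counts per cell against 121425 in the 31 others. The single such cell of the pool had 59644 counts against a median of 383542, and that of PdgfrbGFP 180046 against 282704.

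Across the transcriptome, 75 of 12976 genes were called between cluster 10 and the other fibroblasts by edgeR's quasi-likelihood test at an adjusted p under 0.05, which is 0.578% of the genes tested. Of these, 38 were higher (0.293%) and 37 lower (0.285%) in cluster 10. The count was 0 without PdgfrbGFP, with 1054 genes at an unadjusted p under 0.05, and DESeq2 called 767 there. It was 24 with equal numbers of comparator cells, and 1170 by DESeq2 with all labels. Of the 7 listed markers, 6 were among those higher, and Col9a2 was not called. The authors made the clusters from these same counts, so the calls describe the clustering and are no independent test of it, and no single p-value is given. All tested genes had a median of −0.47 on this log2 scale, against which the folds below are to be read. It was −0.33 with another scaling, −0.02 with equal numbers of comparator cells and −1.31 with no filter. List medians below cover only members that passed the filter on low counts. A member near 0 in 1 group could pass only through the other, which fixes the sign of its fold. At 0.578% of genes called, a short list with 0 calls is near the share over all genes.

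The 20 genes with the largest positive folds, among called genes that went the same way in every label and reached 100 scaled counts in 30% or more of cluster 10 cells, included 4 listed markers and, beside them, several receptors and signalling genes. Cyp2s1, a cytochrome P450 enzyme, stood at 525 CPM in Cspg4dsRED, 192 in the pool and 315 in PdgfrbGFP, against 0.333, 3.11 and 2.32 in the other fibroblasts. Rasgrp2, an activator of the small GTPase Rap1, stood at 272, 479.7 and 299.9 CPM against 6.67, 10.1 and 11.5. Its difference was among the steadiest, at a log2 of 5.34 ± 0.37 (n = 3). Plxdc1, a membrane protein of the plexin-domain family, stood at 778, 294 and 355 CPM against 15.8, 16.7 and 18.3.

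Trf and Cp, which encode carriers of metals in plasma, were both called higher. Trf, the iron carrier transferrin, stood at 3074, 1528 and 2551 CPM against 137, 114 and 113, a log2 difference of 4.38 ± 0.56. Cp, the copper oxidase ceruloplasmin, stood at 445, 1391 and 1559 CPM against 8.78, 147 and 128, and was lowest in Cspg4dsRED in both groups, where Trf was highest. Gm20425, also among the 20, shares 69.6% of its exon bases with Trf on the same strand, so its reads cannot be assigned to it. Trf in turn shares 63.5% of its exon bases with Gm20425, so the same limit holds for its level.

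Some matrix and surface genes that rose were found in nearly every cell. Gpc3 stood at 4295, 2423 and 4599 CPM against 255, 281 and 444, and 60 of 62 cells reached 100 scaled counts. Matn2 stood at 1435, 1458 and 2360 CPM against 250.1, 229 and 225, with 58 of 62 cells. Both genes therefore marked nearly the whole cluster, whereas 39.05% of the other fibroblasts reached the level for Gpc3 and 29.5% for Matn2 (mean over 3 labels).

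The remaining genes of the 20 with a role in signalling responses were Plk2, Dusp6, Fosb and Btg2. Dusp6, a phosphatase that dampens ERK signalling, stood at 1379, 506 and 642 CPM against 83.4, 72.5 and 71.5. Btg2, an antiproliferative early response gene, stood at 4137, 901 and 2264 CPM against 315, 197 and 367. Plk2, a stress-responsive kinase, had a log2 difference of 3.81 ± 0.60 and Fosb, a subunit of the AP-1 factor, of 3.16 ± 0.73. Of the 20 genes, 12 had a promoter window, of which 2 held the SOX motif (Cp and Dusp6) and 1 the AP-1 motif (Cp).

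**Figure D4:**
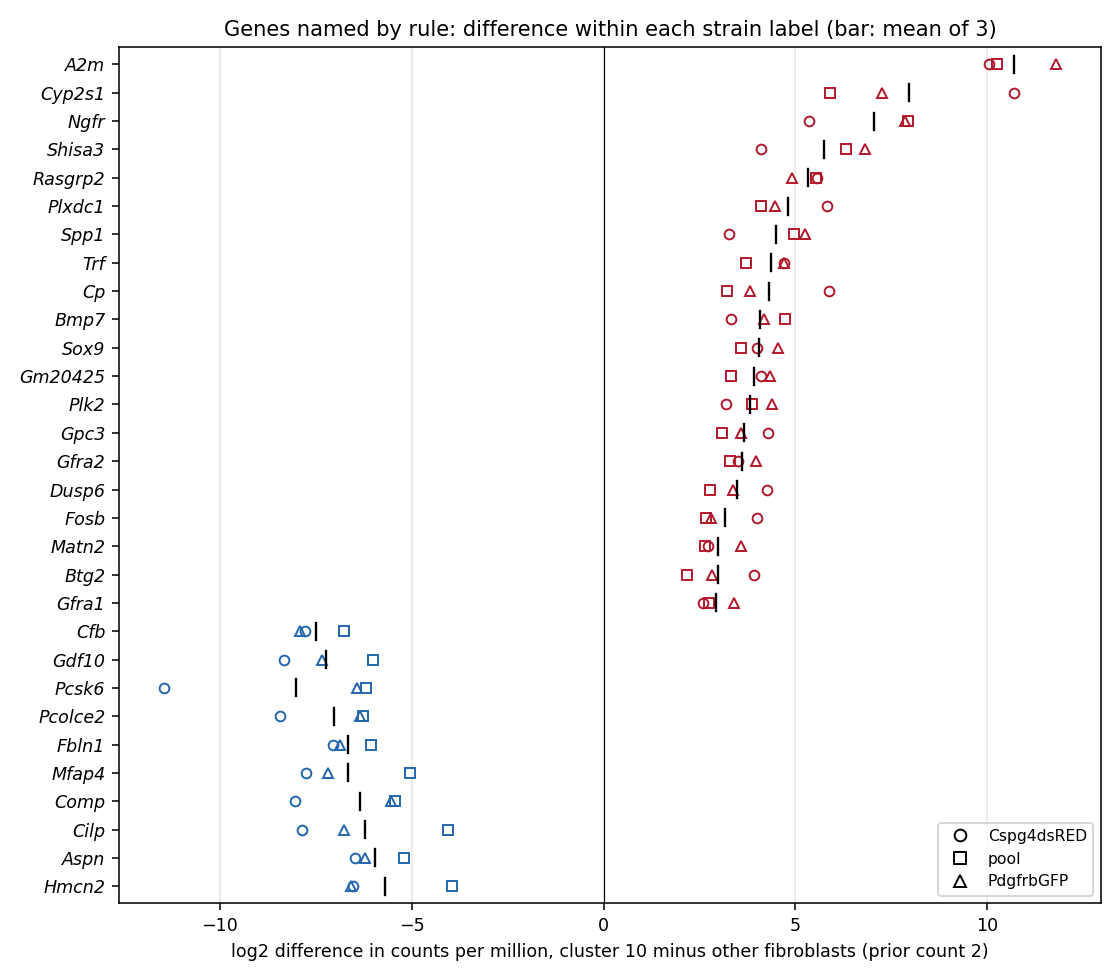
Log2 difference in CPM between cluster 10 and the other fibroblasts within each strain label (points) and their mean (bar), for the 20 higher and 10 lower genes named by rule. All points of the higher genes lie above 0 and all points of the lower genes below it, as the rule required, and the size differs between labels most for Cyp2s1 and Pcsk6.

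The 10 genes named for the largest negative folds follow. Fbln1, the matrix glycoprotein fibulin 1, stood at 7.08, 8.36 and 8.78 CPM in cluster 10 against 1102, 555 and 1174. Only 1 of 62 cells reached 100 scaled counts, and the log2 difference was −6.66 ± 0.53 (n = 3). Pcolce2, an enhancer of procollagen processing, stood at 0.559, 5.43 and 6.34 CPM against 234, 418 and 599. Mfap4, a protein of elastic fibres, had a difference of −6.66 ± 1.43, Aspn, the leucine-rich proteoglycan asporin, of −5.97 ± 0.67, and Hmcn2, hemicentin 2, of −5.70 ± 1.51.

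Gdf10, a growth factor of the BMP family, stood at 2.24, 7.04 and 3.90 CPM against 852, 453 and 727. Pcsk6, a proprotein convertase, had 0 counts in cluster 10 of Cspg4dsRED, and stood at 6.02 and 2.93 CPM in the pool and PdgfrbGFP against 90.8, 434 and 290. Cilp, a protein of the cartilage intermediate layer, stood at 4.66, 107 and 13.7 CPM against 1263, 1753 and 1702, so that its level in the pool was above the other labels. Comp, cartilage oligomeric matrix protein, stood at 11.2, 12.03 and 19.5 CPM against 3463, 518 and 1041. Cfb, complement factor B, stood at 1.30, 2.05 and 1.46 CPM against 341, 226 and 411, and 0 of 62 cells reached 100 scaled counts. Gm20547, also called lower, shares 57.6% of its exon bases with Cfb on the same strand. Cfb in turn shares 79.5% of its exon bases with Gm20547, so reads in the shared part cannot be assigned to either gene.

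Genes of the nerve sheath were then examined, beginning with Schwann cells and other glia. Of 20 genes listed, 9 passed the filter on low counts, and 0 were called higher and 0 lower. Of all genes tested 0.578% were called, so 0 of 9 is near that share. The median log2 fold change was 0.58 against −0.47 over all genes. Several defining markers were at or near 0 in cluster 10. Sox10 had 6 counts in Cspg4dsRED and 0 in the other labels, and Erbb3 and Foxd3 had 0 throughout. Of the 62 cells, 0 reached 100 scaled counts of Sox10. As a share of such cells in general this allows up to 3 in 62. S100b, a calcium-binding protein of glia and other cells, stood at 27.0, 22.01 and 51.7 CPM against 20.3, 8.14 and 15.5.

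Cdh19, a cadherin known from Schwann cell precursors, had a higher level than in the other fibroblasts of each label. It stood at 134 CPM in Cspg4dsRED, 402 in the pool and 317 in PdgfrbGFP against 18.1, 9.42 and 3.72, and 24 of 62 cells reached 100 scaled counts (7 of 37, 12 of 17 and 5 of 8). The groups did not overlap, but the gene was not called against the other fibroblasts and was called only against perimysial cells. Ncam1, a neural adhesion molecule, stood at 0.932, 0.147 and 0.975 CPM against 33.3, 32.0 and 34.7, and Egr2, a regulator of myelination and an immediate early gene, at 174, 136 and 158 against 30.01, 26.5 and 56.2. Neither was called there. Prx, the myelin protein periaxin, had 1 count in all of cluster 10.

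Perineurial genes were not called against the other fibroblasts. Of 14 listed, 10 passed the filter and 0 were called, where 0.578% of all genes tested were. The median log2 fold change was −3.62. Members near 0 in cluster 10 could pass only through the other fibroblasts, which makes their folds negative. This median is therefore no measure of the whole list. Tenm2, a teneurin that acts as an adhesion receptor, stood at 212, 280.3 and 247 CPM against 31.1, 0.987 and 1.46, and 20 of 62 cells reached the level of 100. Cldn1, a claudin of tight junctions, stood at 128, 366 and 69.2 CPM against 108, 38.7 and 9.03, and the 2 groups overlapped between labels. The glucose transporter gene Slc2a1 stood at 16.2, 38.5 and 117 CPM against 142, 15.1 and 19.6, so that its direction differed between labels. Itgb4, Lypd2 and Ntng1 had 1 count each in all of cluster 10, and Msln had 0. Itgb4, a laminin-binding integrin, stood at 116 CPM in the other fibroblasts of Cspg4dsRED and at 4.46 and 4.05 in the other labels.

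Genes listed for endoneurial and epineurial fibroblasts also went both ways. All 13 passed the filter, of which 1 was called higher, namely Sox9, and 4 lower, namely Wif1, Pcolce2, Ly6c1 and Sfrp4. Sox9 (ENSMUSG00000000567, chromosome 11, 112782224 to 112787760, plus strand) stood at 642, 1005 and 759 CPM against 46.6, 82.8 and 37.1, and reached 100 scaled counts in 44 of 62 cells. Osr2, a zinc finger transcription factor, stood at 1501, 451 and 849.9 CPM against 24.5, 99.7 and 100.3. It was present at the level of 100 in 46 of 62 cells and was called against perimysial cells alone. Either Sox9 or Osr2 reached that level in 60 of 62 cells and both did in 30. Col26a1, a short collagen, stood at 42.3, 114 and 51.2 CPM against 0.333, 1.07 and 0.988 without being called. Wif1 and Sfrp4, secreted Wnt antagonists, stood at 1.12, 0.587 and 1.95 and at 0.186, 11.2 and 2.93 CPM, against 372, 32.1 and 157 and against 88.9, 264 and 452.

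**Figure D5:**
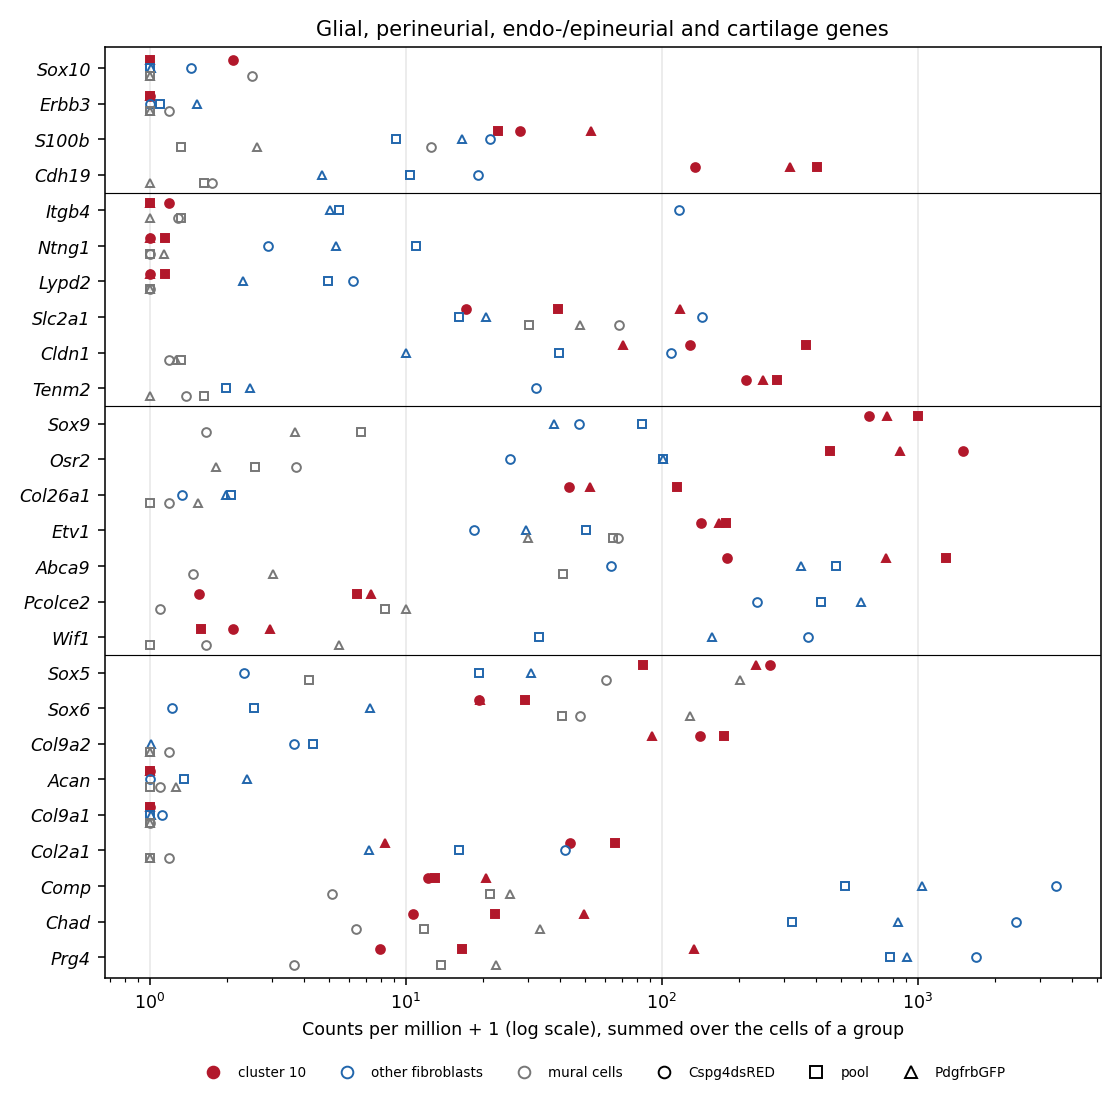
Levels of genes listed for glia, perineurial cells, endoneurial and epineurial fibroblasts, and cartilage (blocks from top to bottom), in CPM plus 1 on a log axis, with 1 point per group (colour) and strain label (shape). Sox10, Erbb3, Itgb4, Acan and Col9a1 sit near 0 in cluster 10, while Cdh19, Tenm2, Sox9, Osr2 and Col9a2 lie above all points of the other fibroblasts; Etv1, Abca9, Col2a1, Chad and Prg4 were added after their values had been seen.

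Cartilage genes were taken next. Of 26 listed, 16 passed the filter, 2 were called higher (Sox8 and Sox9) and 2 lower (Comp and Cilp), and the median log2 fold change was −2.93. Sox5 and Sox6, the partners of SOX9, stood at 264, 83.6 and 232 CPM against 1.33, 18.3 and 29.8, and at 18.3, 28.3 and 18.5 against 0.222, 1.54 and 6.25. Neither was called. In the list of 12 Sox genes, of which 7 passed the filter, Sox8 and Sox9 were the 2 called, and none was called lower. Sox8 is itself a listed marker, so its call in either list is no separate result. Of the 7 Sox genes past the filter, 4 had a positive fold and 1 was lower in all 3 labels, with a median of 4.00. The summed level of the 12 was 1235, 1340 and 1732 CPM against 101, 159 and 104. Of the sum in Cspg4dsRED, Sox9, Sox8 and Sox5 held 642, 307 and 264 CPM. In PdgfrbGFP, Sox7 and Sox18 were counted only in the cell with endothelial markers described below.

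The main structural genes of cartilage were at low levels or at 0. Acan, the proteoglycan aggrecan, and Col9a1 and Col9a3, the other chains of collagen IX, had 0 counts in cluster 10, as had Matn1. Col2a1, the main cartilage collagen, stood at 42.7, 64.6 and 7.31 CPM against 40.7, 15.1 and 6.19, and its groups overlapped. Col11a2 stood at 0, 0.293 and 0 CPM against 30.9, 39.2 and 26.0, and Matn4 at 0.373, 0.293 and 0 against 42.7, 39.3 and 35.9. Against perimysial cells, which express tendon and cartilage genes, 8 of the list were called lower, among them Comp, Chad, Prg4 and Cilp2, and Sox9 alone was called higher. Against endomysial cells, 13 of the list passed the filter, of which Sox8 and Sox9 were called higher and 0 lower, and the median was 3.06, so the sign of the list's median depended on the comparator.

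Among 23 neurotrophin and GDNF family genes, 13 passed the filter and 3 were called higher, all of them receptors. Beside Ngfr, itself a listed marker, these were Gfra1 and Gfra2, the receptors that bind GDNF and neurturin. Gfra1 stood at 221, 934 and 999.2 CPM against 42.6, 136 and 108, and Gfra2 at 288, 191 and 420 against 29.2, 18.9 and 30.5. The log2 differences were 2.92 ± 0.43 and 3.602 ± 0.35 (n = 3). The ligand genes Gdnf and Nrtn had 0 counts in cluster 10. Cntfr and Gfra4 stood at 0, 7.19 and 0 and at 0, 21.7 and 0 CPM, against 85.9, 52.4 and 47.0 and 34.6, 20.9 and 17.7. The list median was 0.06.

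Of 32 axon guidance genes, 22 passed the filter and 0 were called, with a median of −1.36 over those 22. Since 0.578% of all genes tested were called, 0 of 22 is near that share. Plxna4, a semaphorin co-receptor, had 0 counts in cluster 10 and stood at 11.7, 4.93 and 3.09 CPM in the other fibroblasts, and Robo1, a receptor of Slit proteins, stood at 0, 0 and 1.95 CPM against 32.7, 25.3 and 30.2.

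Genes of BMP and Wnt signalling followed. Of 25 BMP and GDF ligands and antagonists, 16 passed the filter, 1 was called higher and 2 lower, with a median of −1.96. The ligand Bmp7 stood at 283, 409 and 369 CPM against 32.8, 15.2 and 23.2 (log2 difference 4.08 ± 0.71). Chrdl1, a BMP antagonist, stood at 0.559, 2.49 and 2.44 CPM against 250, 142 and 286, and Fst, the activin antagonist follistatin, at 0.186, 1.76 and 3.41 against 218, 116 and 161. Fst was not called, whereas Chrdl1 and Gdf10 were. Of 32 Wnt antagonists and modulators, 19 passed the filter, with a median of −2.12. Shisa3, itself a listed marker, was called higher and Sfrp4 and Wif1 lower. The summed level of the Wnt list was 766 CPM in Cspg4dsRED, 1409 in the pool and 785 in PdgfrbGFP against 1284, 962 and 1440, and so was higher in the pool and lower in the other labels. Rspo3, a secreted amplifier of Wnt signalling, stood at 0, 0.440 and 0 CPM against 22.8, 16.7 and 4.68.

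Among basement membrane genes a pair of collagens was called. Of 23 listed, 19 passed the filter, 2 were called higher and 0 lower, with a median of 0.24. Col15a1 stood at 318, 1139 and 785 CPM against 106, 234 and 143, and Col18a1, which carries the endostatin fragment, at 330.2, 679.8 and 298 against 41.7, 134 and 72.4. Against perimysial cells, Lama2, Lamb1, Lamc1 and Nid1 were called higher too. Of 26 other collagens, 21 passed the filter and 1, Col12a1, was called lower, at 0.186, 2.49 and 0.975 CPM against 171, 172 and 170, with a list median of −0.68. Col28a1, a collagen known from peripheral nerve, stood at 58.1, 88.3 and 82.4 CPM against 0.222, 0.0331 and 1.59, and 12.9% of cluster 10 cells reached the level of 100. It was not called.

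The bone and mineral list had 8 of 14 genes past the filter and a median of −3.18. Spp1, itself a listed marker, was called higher and Postn lower. Postn, the matricellular protein periostin, stood at 5.40, 70.6 and 3.41 CPM against 423, 972 and 131. In the protease inhibitor list A2m, itself a listed marker, was the 1 gene called, of 17 past the filter and 20 listed. The median was −0.24. The other members with large folds were Cst6, cystatin E/M, at 33.2, 140 and 15.6 CPM against 1.78, 1.83 and 3.00, and Timp1, an inhibitor of matrix metalloproteinases, at 39.7, 1.91 and 1.46 against 195, 83.4 and 55.3.

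Chemokine and cytokine genes were also examined. Of 26 listed, 14 passed the filter, 3 were called higher (Ccl9, Cxcl1 and Il33) and 0 lower, with a median of 0.98. Of all genes tested, 0.293% were called higher. Ccl9 is itself a listed marker. Of the 14, 6 were higher and 4 lower in all 3 labels, and the list's summed level was 5661, 5444 and 5288 CPM against 1912, 2900 and 2939. Cxcl1, which attracts neutrophils, stood at 1525, 735 and 1441 CPM against 123, 171 and 284, and the alarmin Il33 at 716, 1315 and 1018 against 95.04, 204 and 199. Ccl7 stood at 537, 104 and 94.6 CPM against 1.11, 15.6 and 19.9 without being called. Of 19 complement genes listed, 12 passed the filter, 0 were called higher and 2 lower (Cfb and C7), with a median of −1.98. The summed level of that list was 5513, 3788 and 4547 CPM against 5889, 6563 and 9496. C3, the central component, stood at 0.186, 71.2 and 13.2 CPM against 108, 964 and 1326 and was not called.

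Immediate early genes are induced within minutes by many stimuli. Of 20 listed, all passed the filter, 2 were called higher (Fosb and Nr4a1) and 0 lower. The median was 1.42, and 15 were higher in all 3 labels, as were 12.3% of all genes tested. Their summed level was 49760, 16930 and 35160 CPM in cluster 10 against 15040, 9578 and 14760 in the other fibroblasts of the same labels, and 14130 in the mural cells of Cspg4dsRED. Nr4a1, an orphan nuclear receptor, stood at 8060, 1208 and 3357 CPM against 1200, 230.3 and 671. Dusp6, Btg2 and Plk2, named above, are responsive to the same kinds of stimuli. The part of these genes in the clustering and in the other differences was not tested.

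Markers of other cell types were checked in the same sums. Fibroblast genes were present throughout, and of 12 pan-fibroblast genes, all past the filter, Fbln1 was called lower and 0 higher, with a median of 0.42. Dcn reached 100 scaled counts in 62 of 62 cells and Lum, the proteoglycan lumican, in 61. Pdgfra stood at 260, 612 and 1590 CPM against 239.5, 469 and 698. A count of Pdgfra or Pdgfrb was absent from 10 of 62 cells, all of them among the 37 of Cspg4dsRED (27.0%). The other fibroblasts of that label lacked it in 22 of 70 cells (31.4%). Of 14 mural genes, 12 passed the filter and 0 were called, where 0.578% of all genes tested were, with a median of −0.96. The summed level of the mural list was 493 to 1208 CPM in cluster 10, 384 to 1328 in the other fibroblasts and 21860 to 36640 in mural cells. Notch3 was at 1.49, 1.17 and 0 CPM in cluster 10. Acta2, the smooth muscle actin gene, reached the level of 100 in 67.6% of cluster 10 cells in Cspg4dsRED. In the pool it did so in 0% and in PdgfrbGFP in 12.5%. Cspg4 reached it in 31 of 62 cells, as given above. At least 1 of the narrower markers Myh11, Notch3, Rgs5 and Mcam reached it in 4 of 62 cells (0 of 37, 2 of 17 and 2 of 8). The same held for 43 of the 1504 other fibroblasts. Without those 4 cells 74 genes were called, of which 65 were among the 75.

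Endothelial genes marked 1 cell. Of 8 listed, 4 passed the filter and 0 were called, with a median of 0.83, and their summed level was 17.3 and 13.2 CPM in Cspg4dsRED and the pool but 421 in PdgfrbGFP, against 12.2 to 20.1 in the other fibroblasts. A single cell of that label carried it, with 599.6 scaled counts of Pecam1 and 491.7 of Kdr, a receptor of vascular endothelial growth factor. Kdr, Flt1 and Cdh5 had 0 counts in the other 7 cells of the label. The cell had 271 scaled counts of Ngfr and 0 of Sox9. Without it, 100 genes were called against the other fibroblasts, including all 75. Of 8 immune genes 2 passed the filter, with a median of −0.98, and of 12 genes of muscle fibres and satellite cells 5 did, with a median of −3.08; 0 of either list were called, and Ptprc and Pax7 had 0 counts in cluster 10.

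The 2 large fibroblast classes were then taken separately as comparators. These comparisons share the cluster 10 cells with the first one, so their results are set side by side and no overlap is read as support. Against the perimysial cells of clusters 2 and 9, 195 genes out of 11725 passed the threshold (1.66%). Cluster 10 was above them in 105 (0.896%) and below them in 90 (0.768%), while all tested genes had a median of −0.18. Against the endomysial cells of clusters 1, 3, 5, 6 and 8 it was 55 of 12455 (0.442%), 33 higher (0.265%) and 22 lower (0.177%), with a median of −0.41. In both, 18 genes were higher and 7 lower.

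The 18 shared genes, named after their values had been seen, included the listed markers A2m, Ccl9 and Shisa3. Trf, Gm20425, Gpc3, Matn2, Plxdc1, Rasgrp2, Sox9, Il33 and Nr4a1, described above, were also shared. The remaining 6 were Apod, an apolipoprotein, Casq2, a calcium-binding protein of muscle, Cpe, a carboxypeptidase that processes peptide hormones, the transcription factor gene Foxs1, and the matrix genes Vit and Vwa1. The 7 lower in both were Fbln1, Pcolce2, Mfap4, Aspn, Anxa8, Ccn5 and Gpnmb.

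Perimysial genes were lower in cluster 10 than in the perimysial cells, with an exception. The study named genes of this list for these same perimysial cells, so the direction was largely set by the choice of list. Of 12 listed, all passed the filter against perimysial cells, 11 were called lower and 0 higher, with a median of −9.38. Scx and Mkx, transcription factors of tendon, stood at 0, 0.734 and 0 and at 0.186, 0.440 and 0.488 CPM against 50.4, 305.5 and 131 and against 379, 424.5 and 419.6 in perimysial cells. The exception was Thbs1, thrombospondin 1, at 964, 668 and 1285 CPM in cluster 10, with a log2 fold change of −0.68 against perimysial and 4.74 against endomysial cells. Thbs4, thrombospondin 4, stood at 2353, 1209 and 1371 CPM, lower than in perimysial cells (−2.65) and higher than in endomysial cells (1.95), each called. Against all other fibroblasts together, 1 of the 12 (Thbs1) was higher and 3 (Tnmd, Col12a1 and Wif1) lower, with a median of −6.62.

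Spp1 followed the same order. Perimysial cells held 308, 147 and 170 CPM, so the log2 fold change of cluster 10 was 1.79 against them, not called, and 8.86 against endomysial cells, called. Ngfr differed by similar amounts from both classes, at 7.09 and 7.17, and of the 2 was called against endomysial cells only. Pdgfra went the other way. It stood at 1.92, 44.7 and 31.9 CPM in perimysial cells, and cluster 10 was higher by a log2 fold change of 5.35, called, while it was 0.33 against endomysial cells. Of the 4 paramysial genes, all past the filter, Postn alone was called lower against all other fibroblasts, with a list median of −3.03.

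Over all genes, the closest profile to cluster 10 lay among endomysial clusters. By Pearson correlation of log2 CPM across genes it was cluster 6 in Cspg4dsRED (r = 0.525 over 8718 genes) and cluster 3 in the pool (r = 0.725 over 10224) and in PdgfrbGFP (r = 0.562 over 10025). Mural cells gave 0.336, 0.385 and 0.318. Genes are not independent replicates, the clusters of a label share plates, and clusters with more cells give less noisy profiles, so these values only describe an order. In Cspg4dsRED only clusters 2, 6 and 7 had 3 or more cells.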

How the data were processed

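Single cells of mouse skeletal muscle had been sequenced with Smart-seq2, a full-length protocol without molecular identifiers. Per the study's methods and the submitters' processing notes, the authors demultiplexed reads with bcl2fastq, trimmed them with trim galore, aligned them to GRCm38 (mm10) with TopHat2 using Bowtie or Bowtie2, removed duplicates with samtools and counted reads per gene with featureCounts of Subread, and the deposited table holds these raw counts for each gene and cell. Strand use in counting is not given in the sources used here, so reads of overlapping genes on opposite strands cannot be told apart. The highest count per exon base of any gene in any cell was 1.947, so folds of very abundant genes can be understated. One extract protocol in the labels speaks of heart, while the tissue field of each cell reads skeletal muscle. The table held 46517 genes, of which 46005 identifiers were matched to a symbol, and 92 spike-in sequences, which took 1.31% of counts and were left out. Of 1754 columns, 1 matched no cell and was not used.

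Counts were summed over the cells of a group within each strain label with 3 or more cluster 10 cells, which left 3 labels. The sums were tested with edgeR 4.0.16 (R 4.3.3): TMM scaling, a filter on low counts, the strain label as a block, and the quasi-likelihood test with Benjamini-Hochberg adjustment at 0.05. The block pairs sums of the same strain label. In PdgfrbGFP all 8 cluster 10 cells lay on 1 plate, which held 345 of the 585 other fibroblasts compared. That pair therefore also spans plates without cluster 10 cells. Differences within a label used a prior count of 2. An exact sign-flip test over 3 labels cannot give a two-sided p below 0.25, so none was run. The fit was also run on simulated counts with known changes. These had a fixed dispersion and no difference between strain labels, unlike the sums here, so the run is no check of the calls. Shares of cells have Clopper-Pearson intervals, and a share of 0 has the limit that 3 counts allow. Alternatives were DESeq2 1.42.0, other scaling, no filter, plates as units, equal cell numbers, each label left out, and several sets of cells left out. Genes were named by rule: the 7 listed markers, the 20 highest and 10 lowest called genes with the same direction in every label and 100 or more scaled counts in 30% or more of the cells of the higher group, and 2 to 6 members of each gene list by size of fold, with defining markers. Others were chosen after their values were seen: Apod, Casq2, Cpe, Foxs1, Vit, Vwa1, Anxa8, Ccn5, Gpnmb, Gm20547, Abca9, Etv1, Chad and Prg4. The members and the lists were chosen with earlier results of these data known. Some genes of the lists are not reported here.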

Additional observations from a re-analysis of the deposited data

Results flagged for a closer look

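Cluster 10 cells came from 4 plates, and for 3 of 33 genes tested the lowest plate stood far from the other plates by Dixon's criterion. In each case it was the Cspg4dsRED plate. Cp stood at 445.3 CPM there, Gfra1 at 221 CPM and Pcolce2 at 0.559 CPM. Chance gives such a gap in about 1 of 20 groups of values. The plate holds all cells of that strain label, so plate, sort and strain cannot be told apart.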

How the results depend on the processing

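The number of genes called depended on the processing. Against the other fibroblasts it was 75, and DESeq2 gave 1170, no filter on low counts 269, plates as units 136 and equal numbers of comparator cells 24. Against perimysial cells it was 195, and DESeq2 gave 1253 and no filter 520. Against endomysial cells it was 55, and DESeq2 gave 1005, no filter 274 and plates as units 111. Leaving out a strain label gave 0 to 767 calls against the other fibroblasts, 218 to 851 against perimysial and 0 to 726 against endomysial cells, the highest being DESeq2 without PdgfrbGFP. Without PdgfrbGFP edgeR called 0 genes against the other fibroblasts, with 1054 at an unadjusted p under 0.05, and 0 against endomysial cells, with 803. DESeq2 called 767 and 726 there at an adjusted p under 0.05. Without Cspg4dsRED edgeR called 334 and 216, and without the pool 71 and 109. The cause was not tested. Without the replicate block that pairs sums of a strain label the calls were 60, 206 and 43, of which 40, 148 and 31 were among those with it. Against the other fibroblasts 50.7% of calls were higher, 40% without that block and 31.4% by DESeq2.

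Of 2197 values of named genes under alternatives, 1748 kept their direction and side of the threshold and 6 reversed. With the 24 cluster 10 cells that reached 100 scaled counts of Cdh19 left out, Cdh19 stood at −1.08 against the other fibroblasts and −1.45 against endomysial cells, Spp1 at −0.35 and Hmcn2 at 0.002 against perimysial cells, and Pdgfra at −0.18 against endomysial cells. These cells were removed by Cdh19 itself. Pdgfra against endomysial cells ranged from −0.036 to 0.54 when a label was left out. The share of cluster 10 in Cspg4dsRED, and on its plate, was 20.4% of all cells, mural cells included. Without thinning, the median genes per cluster 10 cell averaged 4103, and 75.3 more than in the other fibroblasts. Sox8 was counted at all in 45.3% of cluster 10 cells (mean over labels). Depth limits genes with low counts, and the smallest cluster 10 sum was that of PdgfrbGFP, with 2050722 counts.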
